A study of Mus musculus with 6 samples.

Results

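Genes of hepatic stellate cells and of the extracellular matrix were followed in mouse liver in which the gene of serum response factor (SRF), a transcription factor, was targeted by Cre. The group was given as 41 gene symbols, and every probe set annotated with 1 symbol, that of a member, was taken, which gave 91 of the 45101 probe sets on the array for 40 of the 41 genes. The remaining member, the lysyl oxidase relative Loxl2, is on the array through probe sets annotated with more than 1 symbol and has no value here. RNA came from whole liver of 6 male mice aged 3 weeks, with 1 Affymetrix array for each mouse. The 3 controls were Srf loxP/+ with the AlfpCre transgene and the 3 mutants were Srf loxP/loxP with the same transgene, so both groups carried Cre and at least 1 loxP allele. AlfpCre expresses Cre recombinase from albumin regulatory sequences with alpha-fetoprotein enhancers, which act in the hepatocyte lineage, while most of the genes described here are known from stellate cells and fibroblasts. The arrays measured the whole organ, so fewer cells of a type and less RNA in each cell cannot be told apart.

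Hepatic stellate cells lie between hepatocytes and the sinusoidal endothelium and store vitamin A as retinyl esters, which lecithin retinol acyltransferase (Lrat) makes. When liver is injured they turn into myofibroblasts under the growth factors TGF-beta and PDGF and secrete fibrillar collagens. Fibrillar collagens form the tensile fibres of portal tracts and scars, type IV collagen and laminins form the basement membrane, lysyl oxidases crosslink the fibres, and matrix metalloproteinases and their tissue inhibitors (TIMPs) set how fast matrix is removed.

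The values are log2 of the scaled probe set signal, and each difference is the mutant mean minus the control mean. Background was taken from 83 probe sets of olfactory, vomeronasal and taste receptors, whose 95th percentile was 2.87 in controls and 3.04 in mutants. On their brightest probe set 38 of the 40 members had a control mean above it, among them the stellate markers Reln, Lrat, Hgf and Des. The means of 36 lay above it in both groups. For Des, controls 1 and 2 lay below it, both at 2.73. Pearson correlations of log2 signal were 0.937 to 0.941 between controls and 0.827 to 0.907 between mutants. The Srf probe set 1418256_at was at 5.31, 5.14 and 5.11 in the controls and 4.17, 5.24 and 2.54 in the arrays labelled mutant 1 to 3, with no call (adjusted p = 0.398, limma). A dimmer, shared Srf probe set (1418255_s_at) had 3.00, 3.69 and 3.37 in the controls and 3.29, 0.00 and 1.99 in mutants (adjusted p = 0.411, limma), so mutant 2 was the lowest array there and at control level on the other. Their position relative to the floxed segment is not known here, and neither is a check of the labels. The 3' over 5' index, a mean of log2 ratios of 3' to 5' signal for the control transcripts Actb, Gapdh and Pcx, is higher where RNA is degraded. Its values were 0.914, 0.781 and 1.22 for the controls and 2.18, 1.18 and 1.57 for the mutants (exact two-sided permutation p = 0.2, where 3 against 3 arrays allow no p below 0.1). Mutant 2 lay within the range of the controls on this index.

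No member passed the test. On the brightest probe set all mutants lay below all controls in 7 of the 11 collagen chains, against 10.8% of all genes. These chains were drawn from several roles and were not a role of their own. Of the 91 probe sets 77 passed the filter on dim signals, and 0 of them passed an adjusted p of 0.05 (limma), against 0.0592% of all 27022 probe sets tested with mutants lower and 0.0148% with mutants higher. At an unadjusted p under 0.05, 23 of the 77 (29.9%) were lower in mutants, against 6.18% of all probe sets, and 3 (3.90%) higher, against 7.60%. The 14 probe sets left out lay at or below background in both groups. In 18 of the 77 probe sets (23.4%) all mutants lay below all controls, against 9.36% of all probe sets, and in 6 (7.79%) all mutants lay above, against 13.8%. Taken gene by gene on the brightest probe set, the groups did not overlap in 9 members with mutants lower, 22.5% of 40 against 10.8% of all genes. In 3 members mutants were higher without overlap, 7.50% against 14.1% of all genes. The median difference was -0.67 over the 40 members and 0.06 over all 13144 genes kept, and 32 of the 40 differences were negative, as were 6033 of the 13144. Of 26 members with several kept probe sets 19 had one sign on all of them, and the others were Eln, Hgf, Mmp14, Nid1, Sparc, Timp2 and Timp3.

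**Figure D1:**
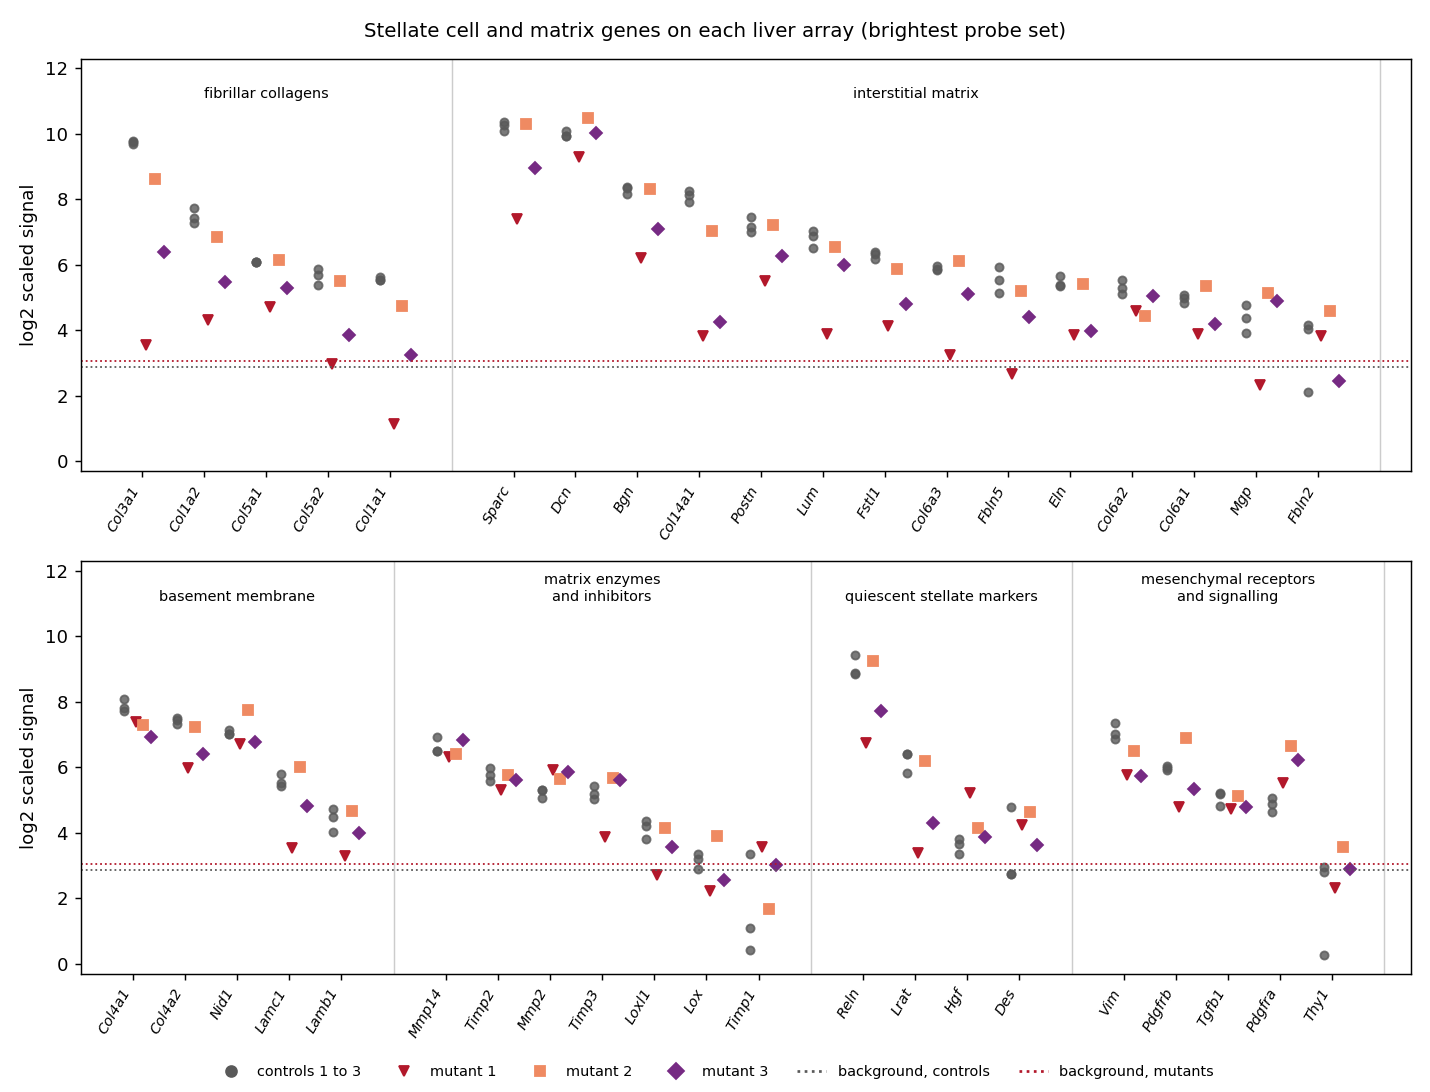
Log2 scaled signal (vertical axis) of the brightest probe set of 40 members on each of the 6 arrays, with members grouped by role along the horizontal axis; circles are the 3 controls, the other symbols mutants 1 to 3, and dotted lines the background of each group. Col3a1 spans 9.69 to 9.77 in controls and 3.56 to 8.61 in mutants, while Pdgfra is above every control in all 3 mutants.

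The fibrillar collagens had the lowest values relative to controls among the roles. Col3a1, the chain of type III collagen, was at 9.77, 9.76 and 9.69 on its brightest probe set (1427883_a_at) in controls 1 to 3. In mutants 1 to 3 it was at 3.56, 8.61 and 6.38. The controls lay close together, every mutant lay below them, and the mutants were far apart, with mutant 1 the lowest and mutant 2 the highest. The log2 difference of Col3a1 was -3.56 (SE 1.05, adjusted p = 0.296, limma), which is 11.8-fold. A dimmer probe set of Col3a1 (1427884_at) had the same order, with 5.47, 5.87 and 5.51 in the controls and 0.00, 4.36 and 2.61 in mutants, and gave at least 5.94-fold.

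Type I collagen is built from chains of Col1a1 and Col1a2. Col1a1 (1423669_at) had log2 signals of 5.53, 5.63 and 5.54 in the controls and 1.15, 4.73 and 3.25 in mutants. Mutant 1 lay below background there, the mutant mean was at the background level, and the control mean was at least 5.75-fold above it (log2 difference -2.53, SE 0.79, adjusted p = 0.307, limma). A dimmer probe set of Col1a1 (1455494_at) had 3.80, 4.44 and 4.28 in the controls and 2.48, 3.70 and 0.057 in mutants. There mutant 3 was the lowest, and the mutant mean was below background. The other chain, Col1a2 (1450857_a_at), was at 7.44, 7.73 and 7.27 in the controls and 4.30, 6.86 and 5.48 in mutants, a difference of -1.93 (SE 0.57, adjusted p = 0.296, limma). On its second kept probe set (1423110_at) Col1a2 had 6.38, 6.55 and 6.30 in the controls and 3.38, 5.40 and 3.54 in mutants, and the smallest adjusted p of any member probe set (log2 difference -2.30, SE 0.52, adjusted p = 0.206, limma). All 4 kept probe sets of the type I chains had every mutant below every control.

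The minor fibrillar chains Col5a1 and Col5a2, which set the width of type I fibrils, were partly within the control range on their brightest probe sets. Col5a1 (1434479_at) was at 6.07, 6.07 and 6.09 in the controls and 4.71, 6.16 and 5.28 in mutants, where mutant 2 lay above the controls and mutants 1 and 3 below. Col5a2 (1422437_at) was at 5.87, 5.39 and 5.69 in the controls and 2.96, 5.49 and 3.85 in mutants, with mutant 2 among the controls. Their differences were -0.69 (SE 0.38, adjusted p = 0.415, limma) and -1.55 (SE 0.59, adjusted p = 0.341, limma). The other kept probe sets of Col5a1 gave -1.28 with separate groups (1416740_at) and at least 1.89-fold lower signal in mutants, whose mean was below background, with mutant 2 at the level of the controls (1416741_at). On the second kept probe set of Col5a2 (1450625_at) every mutant lay below every control, with a mutant mean below background. The values there were 3.69, 4.04 and 3.91 in the controls and 0.00, 3.62 and 1.85 in mutants. Over the 11 kept probe sets of fibrillar collagens all differences were negative, from -3.56 to -0.69. In 8 of them (72.7%) all mutants lay below all controls, against 9.36% of all probe sets. By gene, on the brightest probe set, this held for 3 of 5 (60%), against 10.8% of all genes. The median over the 5 genes was -1.93.

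Promoter sequences of RefSeq (GRCm38.p6) were matched to 27 of the 41 members by symbol, and in the 250 bases before the transcription start 3 motifs were searched on both strands. The CArG box, the site that SRF binds, had no match in the 31 promoters of these members, against 1.47% of all 32851 promoters in the table. At this share a set of 31 promoters would often hold no match, so the absence says little. Only the strict form of the box was searched. TATAAA was present in 3 of the 31, those of Col3a1, Postn and Vim, against 12.4% of all promoters. CCAAT, the core of the site of the factor NF-Y, was present in 11 of the 31, against 33.8%. A match is a run of letters and not a measured site, and these searches cover no more distant sequence. The 120 bases before the annotated start are shown for 3 members in which all mutants lay below all controls and for Pdgfra, in which they lay above, with TATAAA and CCAAT matches on either strand in capitals.
Col3a1, chr1:45311418-45311537, strand +: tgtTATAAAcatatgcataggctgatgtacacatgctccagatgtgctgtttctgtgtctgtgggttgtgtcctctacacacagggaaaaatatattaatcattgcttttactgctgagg
Col1a2, chr6:4505498-4505617, strand +: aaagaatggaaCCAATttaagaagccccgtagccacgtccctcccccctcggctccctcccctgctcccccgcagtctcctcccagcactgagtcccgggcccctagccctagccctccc
Vim, chr2:13574191-13574310, strand +: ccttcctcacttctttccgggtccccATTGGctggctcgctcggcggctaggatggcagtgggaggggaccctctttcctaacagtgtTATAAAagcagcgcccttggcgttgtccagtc
Pdgfra, chr5:75152131-75152250, strand +: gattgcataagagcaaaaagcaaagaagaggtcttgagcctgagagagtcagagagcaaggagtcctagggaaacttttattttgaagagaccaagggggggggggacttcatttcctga
In these stretches Col3a1 holds a TATAAA, Col1a2 a CCAAT, and Vim a TATAAA and a CCAAT on the opposite strand, while Pdgfra holds neither.

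The other interstitial matrix genes ranged from differences as large as those of type I collagen to none. Col14a1, a collagen that sits on the surface of fibrils, was at 8.24, 7.91 and 8.12 in the controls and 3.82, 7.02 and 4.27 in mutants (1427168_a_at). All mutants lay below all controls, and the difference of -3.05 (SE 0.74, adjusted p = 0.241, limma) is 8.29-fold. The second kept probe set of Col14a1 (1428455_at) also had separate groups, with a difference of -2.07. Fstl1, a secreted glycoprotein of mesenchymal cells, was at 6.40, 6.33 and 6.19 in the controls and 4.12, 5.87 and 4.80 in mutants, a difference of -1.38 (SE 0.43, adjusted p = 0.308, limma). The groups of Fstl1 did not overlap on this probe set.

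Type VI collagen forms beaded filaments beside cells from the chains of Col6a1, Col6a2 and Col6a3. Col6a2 was lower without overlap on both probe sets, but by unequal amounts. The brighter one, which can detect related transcripts (1426947_x_at), was at 5.55, 5.28 and 5.12 in the controls and 4.58, 4.44 and 5.04 in mutants, and the dimmer one (1452250_a_at) at 4.82, 5.17 and 4.95 in the controls and 0.55, 4.11 and 2.19 in mutants. The first gave -0.63 (SE 0.30, adjusted p = 0.381, limma) and the second at least 3.83-fold. Col6a1 and Col6a3 had mutant 2 above every control and mutants 1 and 3 below, with differences of -0.48 and -1.07 (adjusted p = 0.573 and 0.446, limma).

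Small leucine-rich proteoglycans bind collagen fibrils and differed among themselves. Decorin, Dcn, was at 9.95, 9.92 and 10.08 in the controls and 9.29, 10.48 and 10.03 in mutants, so that mutant 1 lay below the controls and mutant 2 above (difference -0.049, SE 0.31, adjusted p = 0.951, limma). Lumican, Lum, was at 6.88, 7.02 and 6.53 in the controls and 3.90, 6.54 and 5.99 in mutants, with mutant 1 furthest below the controls, mutant 3 also below and mutant 2 at the lowest of them (difference -1.34, SE 0.62, adjusted p = 0.376, limma). For biglycan, Bgn, the values were 8.37, 8.17 and 8.33 in the controls and 6.20, 8.30 and 7.10 in mutants (difference -1.09), where mutant 2 lay within the controls and the others below.

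Sparc, a collagen-binding protein secreted with new matrix, was at 10.36, 10.07 and 10.28 in the controls and 7.39, 10.29 and 8.94 in mutants, where mutant 2 lay within the controls and the other mutants below them (difference -1.36, SE 0.62, adjusted p = 0.373, limma). Periostin, Postn, had a difference of -0.89 and elastin, Eln, of -1.05 on its brightest probe set (adjusted p = 0.382 and 0.359, limma). Fbln5, which assembles elastic fibres, was at 5.14, 5.52 and 5.92 in the controls and 2.66, 5.19 and 4.41 in mutants, a difference of -1.44 with mutant 2 again among the controls. Matrix Gla protein, Mgp, and Fbln2 had differences of -0.23 and 0.20, each smaller than its standard error of 0.72 and 0.73. Over the 14 genes of this role the median difference was -1.06. In 3 of them (21.4%) all mutants lay below all controls, against 10.8% of all genes.

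Basement membrane genes lay closer to the controls than the fibrillar collagens. Col4a1 (1452035_at) was at 7.81, 7.73 and 8.09 in the controls and 7.39, 7.30 and 6.92 in mutants, and its partner chain Col4a2 at 7.43, 7.33 and 7.52 in the controls and 5.97, 7.22 and 6.41 in mutants. In both genes of type IV collagen every mutant lay below every control on this probe set, with differences of -0.67 (SE 0.24, adjusted p = 0.331, limma) and -0.89 (SE 0.34, adjusted p = 0.338, limma). On the second probe set of Col4a1 (1426348_at) mutant 2 was at 6.86, above every control.

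The laminin chains Lamb1 and Lamc1 had mutants 1 and 3 below all controls and mutant 2 within or above them. Lamc1 was at 5.80, 5.44 and 5.54 in the controls and 3.52, 6.01 and 4.81 in mutants (difference -0.81, SE 0.57, adjusted p = 0.499, limma), and Lamb1, measured by a probe set that can detect related transcripts, had a difference of -0.42. Nidogen, Nid1, links laminin to type IV collagen and had probe sets that disagreed. The brightest (1416808_at) was at 7.02, 7.01 and 7.15 in the controls and 6.70, 7.77 and 6.77 in mutants, a difference of 0.018, and 1448469_at had -0.91. The median over the 5 basement membrane genes was -0.67.

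**Figure D2:**
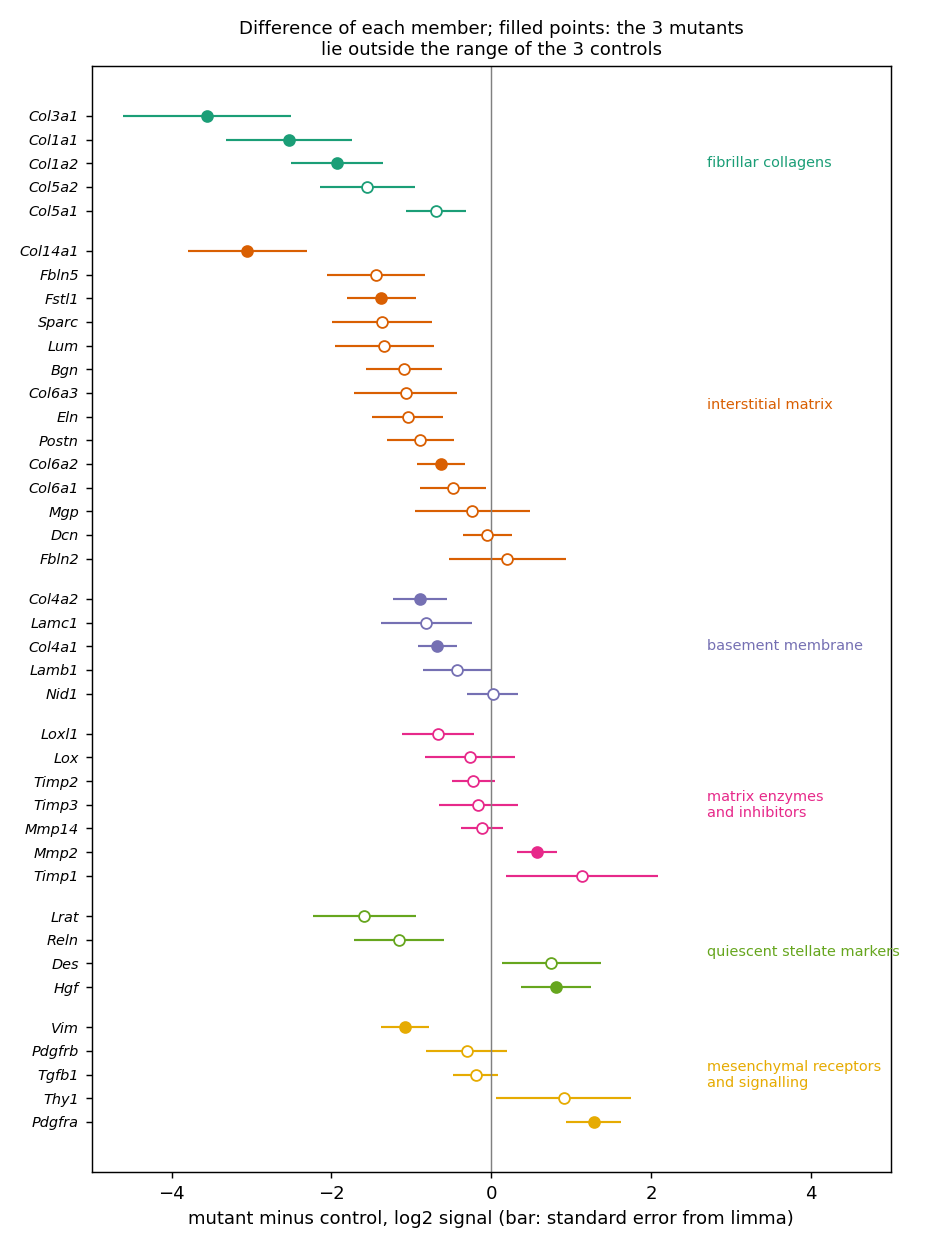
Mutant minus control log2 signal (horizontal axis) of the brightest probe set of each member, grouped by role, with bars of 1 standard error from limma; filled points mark members in which all mutants lay on 1 side of all controls. Col3a1 at -3.56, Col14a1 at -3.05 and Col1a1 at -2.53 are the lowest and Pdgfra at 1.28 is the highest.

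On the brightest probe sets the median of the matrix enzymes and their inhibitors lay near the controls. The gelatinase Mmp2 was on the upper side. Mmp2 (1439364_a_at), which degrades type IV collagen and gelatin, was at 5.07, 5.31 and 5.30 in the controls and 5.91, 5.65 and 5.85 in mutants, and its second probe set (1416136_at) at 4.71, 4.74 and 4.64 in the controls and 4.90, 5.25 and 4.83 in mutants. Every mutant lay above every control on both, by differences of 0.57 (SE 0.25, adjusted p = 0.363, limma) and 0.30 (SE 0.27, adjusted p = 0.6, limma). Mmp14, the membrane-bound protease that activates Mmp2, was at 6.51, 6.91 and 6.49 in the controls and 6.31, 6.42 and 6.84 in mutants on its brightest probe set (difference -0.11). A dimmer probe set of Mmp14 (1440920_at) was at 3.25, 4.10 and 4.14 in the controls and 4.87, 4.76 and 5.31 in mutants, above every control in all mutants, with 1.15 (SE 0.37, adjusted p = 0.309, limma). The 3 probe sets of Mmp14 thus gave differences from -0.11 to 1.15.

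The lysyl oxidases were dim. Loxl1 was at 3.81, 4.22 and 4.37 in the controls and 2.71, 4.15 and 3.55 in mutants, with mutant 2 among the controls (difference -0.66, SE 0.45, adjusted p = 0.489, limma). Lox was at 3.37, 3.21 and 2.90 in the controls and 2.22, 3.90 and 2.55 in mutants, with a mutant mean below background (at least 1.08-fold lower, adjusted p = 0.827, limma). Among the inhibitors, Timp2 and Timp3 had differences of -0.22 and -0.16 on their brightest probe sets (adjusted p = 0.688 and 0.886, limma), with overlapping groups. The 4 kept probe sets of Timp2 ranged from -0.78 to 0.016. On 1454677_at Timp2 was at 5.62, 5.75 and 6.23 in the controls and 3.17, 6.44 and 5.65 in mutants. Timp3 was at 5.03, 5.19 and 5.44 in the controls and 3.87, 5.68 and 5.62 in mutants on its brightest probe set. In both cases mutant 1 lay below all controls. The 4 kept probe sets of Timp3 ranged from -0.16 to 0.79. Timp1, often raised in injured liver, was at 1.09, 0.41 and 3.34 in the controls and 3.56, 1.69 and 3.01 in mutants, and both group means lay below background, so no fold is given. The median of the 7 genes of this role was -0.16. In 1 of them (14.3%), Mmp2, all mutants lay above all controls, a share near the 14.1% of all genes.

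Markers of quiescent stellate cells had differences of both signs. Lrat (1444487_at) was at 6.42, 5.82 and 6.39 in the controls and 3.40, 6.18 and 4.29 in mutants. Mutants 1 and 3 lay below all controls and mutant 2 among them, with a difference of -1.59 (SE 0.64, adjusted p = 0.353, limma). Reln, a secreted glycoprotein known in liver from stellate cells, was at 8.89, 8.84 and 9.43 in the controls and 6.75, 9.24 and 7.72 in mutants, again with mutant 2 among the controls (difference -1.15, SE 0.56, adjusted p = 0.387, limma). Desmin, Des, an intermediate filament of stellate and muscle cells, had dim signals of 2.73, 2.73 and 4.78 in the controls and 4.24, 4.63 and 3.64 in mutants, and its groups overlapped (difference 0.75, SE 0.62).

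Hepatocyte growth factor, Hgf, which stellate cells secrete and hepatocytes respond to, had probe sets of opposite sign. Its brightest one by a small margin (1442884_at) was at 3.65, 3.34 and 3.82 in the controls and 5.22, 4.16 and 3.86 in mutants, above every control. The others were at 4.99, 5.06 and 4.34 in the controls and 0.78, 4.80 and 3.73 in mutants (1425379_at) and at 3.59, 4.20 and 3.98 in the controls and 2.88, 4.33 and 2.37 in mutants (1451866_a_at). Their differences were 0.81, -1.70 and -0.73 (adjusted p = 0.409, 0.413 and 0.528, limma), so no direction is given for Hgf. The median over the 4 genes of this role was -0.20 on the brightest probe sets and -1.02 over all 8 kept probe sets. With 1 array left out it ranged from -0.65 without mutant 2 to -0.021 without mutant 3, and was -0.022 without control 3.

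The PDGF receptors had differences of opposite sign, and the alpha receptor was above every control in all mutants on its kept probe sets. Pdgfra (1421917_at), the receptor of PDGF-A and PDGF-C that marks liver fibroblasts and stellate cells, was at 4.62, 4.88 and 5.08 in the controls and 5.54, 6.67 and 6.23 in mutants. The second kept probe set (1421916_at) was at 0.0016, 1.83 and 2.54 in the controls and 3.33, 3.78 and 3.51 in mutants, with the controls below background. All mutants lay above all controls on both, with 1.28 (SE 0.35, adjusted p = 0.277, limma) on the brighter one, 2.44-fold, and at least 1.60-fold on the other. The dimmer one passed the filter on dim signals through the mutants alone, so its difference is not independent of the filter. A further probe set of Pdgfra (1438946_at) was left out as dim, and its groups overlapped. It was at 1.56, 0.00 and 2.93 in the controls and 2.62, 2.33 and 2.95 in mutants. As on the brightest probe sets of Col3a1 and Col1a1, mutant 2 was the highest mutant for Pdgfra and mutant 1 the lowest, here with all 3 above the controls. Pdgfrb, the beta receptor through which PDGF-B acts on stellate cells, was at 5.99, 6.04 and 5.92 in the controls and 4.79, 6.90 and 5.34 in mutants, so that mutant 2 lay above every control and mutants 1 and 3 below (difference -0.31, SE 0.50, adjusted p = 0.776, limma). The difference between the receptors was not tested.

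Vimentin, Vim, the intermediate filament of mesenchymal cells, was below every control in all mutants on each of its 3 kept probe sets. On the brightest (1438118_x_at), which can detect related transcripts, it was at 7.03, 6.86 and 7.35 in the controls and 5.77, 6.50 and 5.74 in mutants (difference -1.08, SE 0.30, adjusted p = 0.285, limma). The lowest adjusted p of the 3 was on 1456292_a_at, with 6.15, 6.06 and 6.11 in the controls and 4.06, 5.42 and 4.17 in mutants (difference -1.55, SE 0.39, adjusted p = 0.25, limma). Tgfb1, the main fibrogenic cytokine, was at 4.83, 5.23 and 5.18 in the controls and 4.73, 5.14 and 4.78 in mutants, a difference of -0.19 with overlapping groups. The fibroblast surface protein Thy1 had both group means below background, at 2.95, 0.28 and 2.82 in the controls and 2.32, 3.55 and 2.88 in mutants.

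The members were not alike across the 3 mutants. Mutant 1 was the lowest mutant in 32 of the 40 members, against 41.7% of all genes, and lay below all controls in 33 of the 40, against 38.4% of all genes. Mutant 3 lay below all controls in 28 members, 70.0% against 29.0% of all genes. Mutant 2 did so in 10, and these 25.0% are near its 26.9% of all genes. Mutant 2 lay above all controls in 15 members, 37.5% against 33.1% of all genes. Relative to the control mean of each gene, the median of the fibrillar collagens was -3.18, -0.62 and -2.00 in mutants 1 to 3, and that of the other interstitial matrix genes -2.06, 0.0046 and -0.96. The basement membrane genes had medians of -1.11, 0.26 and -0.78 and the mesenchymal receptors and signalling genes -0.35, 0.92 and -0.30. Over all genes the medians were 0.073, 0.065 and 0.14, and single controls lay between -0.33 and 0.30 in every role. The order of the mutants in the fibrillar collagens, from mutant 1 over mutant 3 to mutant 2, was also the order of their 3' over 5' index. Across both groups the order held except between control 3 and mutant 2, whose index values lay close together. Control 3 had an index of 1.22 and a fibrillar collagen median of -0.024, while mutant 2 had 1.18 and -0.62. Controls 1 and 2 had lower index values, 0.914 and 0.781, and medians of -0.0063 and 0.021. The cause of this order was not tested.

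**Figure D3:**
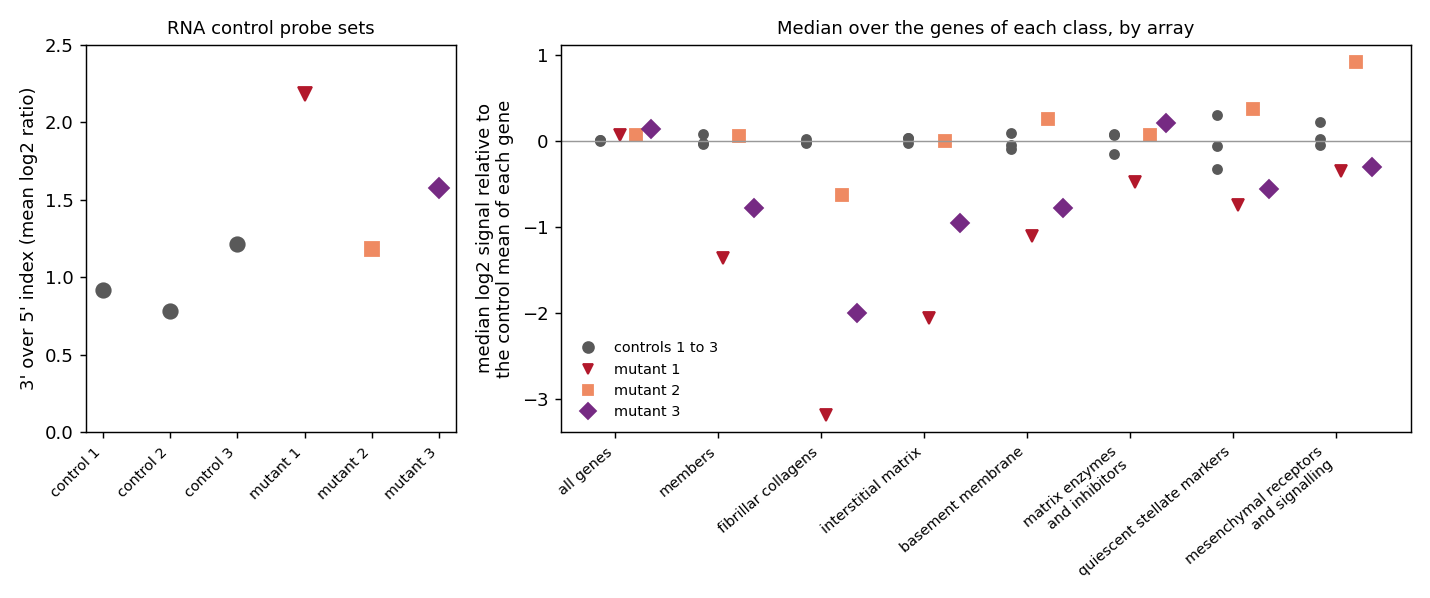
Left, the 3' over 5' index (mean log2 ratio of control probe sets) of each array; right, the median log2 signal of each role relative to the control mean of each gene, with circles for controls and the other symbols for mutants 1 to 3. The fibrillar collagens stand at -3.18, -0.62 and -2.00 in mutants 1 to 3, whose index was 2.18, 1.18 and 1.57.

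When the fit took this RNA index as a covariate, most of these differences were closer to 0. The median over the 40 members was 0.085 in place of -0.67, and that of the fibrillar collagens -0.41 in place of -1.93. Col3a1 had -0.70 (SE 0.64), Col1a2 -0.41 (SE 0.36) and Col14a1 -1.40 (SE 0.71). For Pdgfra the difference was 1.85 (SE 0.40), larger than the 1.28 without the covariate, and for Vim it was -0.82 (SE 0.39). No member passed in this fit (smallest adjusted p = 0.544, limma). Since 2 of the 3 mutants lay above every control on the index, genotype and index cannot be fully told apart.

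The number of members past the threshold depended on how much weight mutant 2 and the other arrays had. Without mutant 2, 15 of the 77 member probe sets, of 11 genes, were lower (adjusted p under 0.05, limma), 19.5% against 1.57% of all probe sets, and 0 were higher, against 0.577%. The genes were Col1a1, Col1a2, Col3a1, Col5a1, Col5a2, Col6a2, Col14a1, Fstl1, Sparc, Lrat and Vim. Mutants 1 and 3, left in this fit, had a 3' over 5' index of 2.18 and 1.57, above every control (0.781 to 1.22). Genotype and index therefore cannot be told apart in it. With array quality weights, which were 0.205 for mutant 1, 0.464 for mutant 2 and 2.92 for mutant 3, 28 member probe sets were lower (36.4% against 6.22% of all) and 2 higher (2.60% against 5.20%). The 2 higher were of Pdgfra and Mmp14. In the other 14 of 16 alternative settings no member passed (limma). Without mutant 1 the median over the members was -0.28, and without mutant 2 it was -0.96. Without mutant 1 the fibrillar collagens had a median of -1.31, the interstitial matrix genes -0.56 and the basement membrane genes -0.18. By its brightest probe set, 17 members were tested in all 16 with the same sign in each, negative in 13, among them Col1a1, Col1a2, Col3a1, Col5a2, Col14a1, Col4a1, Col4a2, Lrat and Vim, and positive in 4, which were Pdgfra, Mmp2, Des and Hgf. For Hgf this holds for 1 of 3 kept probe sets, and the others had the opposite sign. Thy1, not tested with the dimmest 60% left out, was positive in the other 15.

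**Figure D4:**
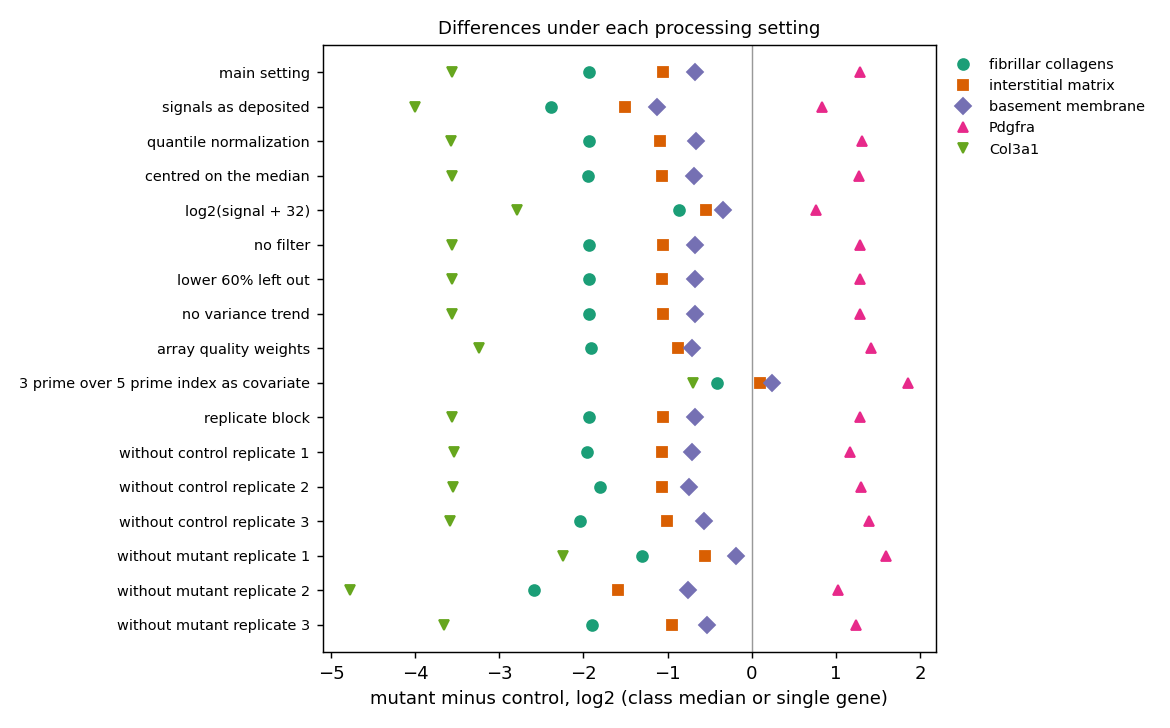
Mutant minus control log2 difference (horizontal axis) under the main setting and 16 alternatives (vertical axis), for the median of 3 roles and for Pdgfra and Col3a1. Pdgfra stays above 0 and Col3a1 below 0 in each, and with the RNA index added to the fit Col3a1 is at -0.70 and the basement membrane median at 0.24.

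Genes that process collagen or signal to stellate cells mostly had overlapping groups. Of 17 listed genes of collagen maturation 15 had a probe set and passed the filter, 0 of them passed the test, and in 2 all mutants were lower and in 2 higher without overlap, shares near the 10.8% and 14.1% of all genes. Pcolce, a secreted enhancer of the protease that trims procollagen, was at 6.59, 6.55 and 6.75 in the controls and 2.98, 5.32 and 3.80 in the mutants, a difference of -2.60 (adjusted p = 0.174, limma). The order of the mutants for Pcolce was that of the fibrillar collagens. Plod1, which hydroxylates lysines of collagen, and Colgalt1, which adds sugars to them, had 0.63 (adjusted p = 0.35, limma) and 0.63 (adjusted p = 0.362, limma).

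Of 22 listed genes of the TGF-beta pathway 20 were kept and 0 passed, with 3 lower and 3 higher without overlap, again near the 10.8% and 14.1% of all genes. The smallest p-values were those of the SMAD repressor Skil at 0.88 (adjusted p = 0.344, limma), the decoy receptor Bambi at 0.81 (adjusted p = 0.344, limma) and the shared mediator Smad4 at 0.89 (adjusted p = 0.356, limma). All 4 PDGF ligands had overlapping groups, and Pdgfc, a ligand of the alpha receptor, had 0.47 (adjusted p = 0.461, limma). Among 26 kept genes of other matrix proteins 0 passed, with a median difference of -0.28. The basement membrane linker Nid2, with a mutant mean below background, was at least 2.44-fold lower in mutants (adjusted p = 0.249, limma). Laminin alpha 5, Lama5, had 1.18 (adjusted p = 0.284, limma). The matrix protease Adamts1 had 0.81 (adjusted p = 0.329, limma).

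Of 12 kept genes from a list of further stellate markers 0 passed, and 10 differences were negative. Adamtsl2, a matrix glycoprotein that binds microfibrils, was at 1.37, 2.80 and 1.13 in the controls and 4.66, 4.46 and 4.70 in the mutants. It lay below background in every control and above it in every mutant, and was at least 3.34-fold higher in mutants (adjusted p = 0.148, limma). Adamtsl2 passed the filter on dim signals through the mutants alone, so this difference is not independent of the filter. Lhx2, a transcription factor that keeps stellate cells quiescent, had -1.22 (adjusted p = 0.362, limma), and Angptl6 had -1.28 (adjusted p = 0.367, limma).

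Several markers of other liver cells also had separate groups, and their part in the matrix results was not tested. The summed scaled signal of the 5 hepatocyte markers measured, of 7 listed, was 26466 to 30955 in controls and 33848 to 40932 in mutants, without overlap. The urea cycle gene Cps1 had 0.50 (adjusted p = 0.354, limma) and albumin, Alb, 0.40 (adjusted p = 0.404, limma). For 8 of 8 myofibroblast and smooth muscle markers the sum was 189 to 237 in controls and 59.4 to 200 in mutants. Among these the contractile genes Myl9 and Tagln, known SRF targets, had mutant means below background. Myl9 was at least 6.40-fold lower in mutants (adjusted p = 0.299, limma) and Tagln at least 3.55-fold lower in mutants (adjusted p = 0.381, limma), and Tpm2 had -0.58 (adjusted p = 0.387, limma). For 8 of 8 portal fibroblast and mesothelial markers, which include the hepatocyte keratin Krt8, the sum was 784 to 923 in controls and 538 to 638 in mutants. Krt8 made up most of this sum, and without it, a choice made after the values were seen, the other 7 markers summed to 89.4 to 152 in controls and 109 to 145 in mutants, with overlap. Krt8 itself had -0.74 (adjusted p = 0.292, limma), and Entpd2 had 0.33 (adjusted p = 0.579, limma). Gpm6a, with a mutant mean below background, was at least 1.19-fold lower in mutants (adjusted p = 0.692, limma).

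For 10 of 10 endothelial markers the sum was 922 to 1400 in controls and 436 to 1910 in mutants, with mutant 1 the lowest and mutant 2 the highest array. The endothelial genes Vwf, Pecam1 and Stab2 had 0.69 (adjusted p = 0.429, limma), -1.16 (adjusted p = 0.557, limma) and -0.40 (adjusted p = 0.587, limma). For 10 of 10 Kupffer cell and macrophage markers it was 1697 to 2339 in controls and 1136 to 1841 in mutants, and Timd4, Adgre1 and Cd5l had -1.14 (adjusted p = 0.336, limma), -0.63 (adjusted p = 0.373, limma) and -1.28 (adjusted p = 0.373, limma). For 5 of 7 cholangiocyte markers it was 35.2 to 40.2 in controls and 44.5 to 70.9 in mutants, with 0.81 (adjusted p = 0.364, limma) for Krt19. Sox9 and Krt7 had control means below background (adjusted p = 0.425 and 0.706, limma). Their mutant means of 3.15 and 3.08 were close to the mutant background of 3.04, so no fold is given. For 7 of 9 blood and lymphocyte markers, of which 4 passed the filter, it was 313 to 482 in controls and 63.6 to 402 in mutants. The heme synthesis gene of red cells, Alas2, made up most of this sum in every control. Alas2 was at 7.71, 8.68 and 7.99 in the controls and 2.77, 8.27 and 4.42 in mutants (difference -2.97, adjusted p = 0.352, limma). The B cell genes Ms4a1 and Cd79a had mutant means below background and control means near it, so no fold is given. No marker of these lists was at 0 on all 6 arrays, and 0 of them passed the test.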

How the data were processed

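Biotin-labelled RNA of 6 livers was hybridised to 6 Affymetrix arrays (one-cycle labelling, per the labels' protocols), and titles gave the groups. The authors deposited 1 linear intensity for each probe set and array. GCOS is named in the submitters' processing notes, without its algorithm or scaling. Trimmed means (2% at each end) of the deposited intensity were 37.3 to 69.9, so arrays were multiplied to their common mean. The scaling hides any change common to most transcripts. Values under 1 were raised to 1 before log2, and the dimmest 40% of probe sets were left out (mean log2 over all arrays under 2.10). A probe set dim in 1 group can pass this filter through the other group alone, and its difference is then not independent of the filter.

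Symbols came from the platform annotation, updated through the Entrez identifier for 34741 of 34945 probe sets with 1 symbol. Groups were compared with limma 3.58.1 (R 4.3.3, lmFit and eBayes with a variance trend), two-sided, and p-values were adjusted by Benjamini-Hochberg across the 27022 probe sets kept. SciPy 1.17.1 gave exact permutation tests. The fit was tested on simulated data. Folds with a group mean at or below background use the background level and are lower bounds. Probe sets ending in s_at or x_at can detect related transcripts. The number of arrays limits the precision.

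The members, roles and other gene lists were chosen with earlier results of these data known. Ecm1 was on 2 lists. Named were all members, Srf and up to 3 genes with the smallest p of each other list. Each gene was represented by its brightest kept probe set, and others are given for some members. Array controls were left out, and no batch is known. Mice are separate animals per the series' design text.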

Additional observations from a re-analysis of the deposited data

How the results depend on the processing

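Over the 40 members and 16 alternatives 595 of 636 values kept their sign. With the lower 60% left out 4 dim members were not tested. The 20 probe sets past the threshold became 35 on the signals as deposited, 32 with arrays centred on their median, 107 after log2(signal + 32), 0 without the filter (limma; also 0 members), 11 with the lower 60% left out, 9 without the variance trend, 3086 with array weights and 5 with the 3' over 5' covariate, and 2 to 579 with 1 array left out. Member probe sets past the threshold were 30 with array weights and 0 to 15 with 1 array left out. On the signals as deposited the median of all genes moved from 0.06 to -0.39, that of members to -1.12 and that of the enzyme role to -0.61. After log2(signal + 32) the fibrillar collagens had a median of -0.86, and over all kept probe sets the quiescent markers had -1.02.

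With the 3' over 5' covariate the medians were 0.085 for members, -0.41 for fibrillar collagens, 0.10 for interstitial matrix, 0.24 for basement membrane, 0.14 for enzymes, 0.046 for quiescent markers and 0.86 for mesenchymal receptors. Members that changed sign there were Col5a1 0.10, Bgn 0.035, Col6a1 0.36, Col6a3 0.59, Dcn 0.58, Lum 0.32, Mgp 1.28, Postn 0.12, Sparc 0.22, Lamb1 0.24, Lamc1 0.57, Lox 0.72, Loxl1 0.085, Mmp14 0.075, Timp1 -0.63, Timp2 0.14, Timp3 0.83, Reln 0.056, Pdgfrb 0.86 and Tgfb1 0.0089. The cause was not tested. Array weights turned the enzyme median to 0.11 and gave Dcn 0.074, Fbln2 -0.57, Mgp 0.47, Nid1 -0.16, Mmp14 0.11 and Timp3 0.33. On the signals as deposited Fbln2 -0.25 and Nid1 -0.43 turned, and after log2(signal + 32) Mgp 0.020.

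With 1 array left out the ranges were -0.33 to 0.066 for the median of the matrix enzymes and inhibitors and -0.32 to 0.14 for the median of the mesenchymal receptors and signalling. For single members they were -0.32 to 0.27 for Dcn, -0.46 to 0.78 for Fbln2, -0.74 to 0.66 for Mgp, -0.33 to 0.21 for Nid1, -0.78 to 0.066 for Lox, -0.27 to 0.025 for Mmp14, -0.48 to 0.43 for Timp3 and -0.92 to 0.14 for Pdgfrb.

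Same-numbered arrays did not deviate together (r = -0.04, 0.02 and 0.04 for numbers 1 to 3, across probe sets), so the numbers are not taken as pairs; 1 of the 3 controls correlated best with the mutant of its number. With the replicate block 22 probe sets and 0 member probe sets passed. Signal near background limits Col1a1, Des, Lox, Timp1 and Thy1.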
